A study of Homo sapiens with 4 samples.

Results

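Heat shock proteins and their co-chaperones were examined in H1299, a cultured line from a human non-small-cell lung cancer, after 48 h with 5 μM mercury chloride (HgCl2) or with the ethanol solvent alone (EtOH). Genes were chosen by symbol and annotated type: protein-coding genes of the HSPA, HSPB, HSPH, HSP90AB, HSPD, HSPE, DNAJA, DNAJB and DNAJC series, the heat shock factors and BAG1 to BAG6. The chaperones of the endoplasmic reticulum stress response HSPA5, DNAJB9, DNAJB11 and DNAJC3 were left out. The patterns took in 77 of 61193 annotated genes, with 541 of the 227368 transcripts in the count table. HSP90AA1, which the patterns do not reach, was placed in a separate list of partner genes. Each group has 2 columns of counts, labelled replicates 1 and 2. The treatment text of the labels gives the HgCl2 dose for every sample, whereas the study's methods give the controls solvent only, and the methods were followed.

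Chaperones of the HSP70 class, the HSPA genes, bind exposed stretches of unfolded proteins in a cycle driven by ATP. DNAJ proteins bring clients and start the ATP hydrolysis, while HSPH1 and the BAG proteins help to release the nucleotide. HSP90 acts later on near-native clients such as kinases, HSPD1 and HSPE1 form the folding chamber of mitochondria, and the small HSPB proteins hold unfolded chains. Heat shock factor 1 (HSF1) switches on many of these genes when unfolded proteins accumulate. Inorganic mercury binds protein thiols and is known to disturb protein folding.

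HSF1 binds heat shock elements, arrays of the unit GAA and its complement TTC in turn with a spacer of 2 bases. Promoter sequences were taken from RefSeq on GRCh38.p14, with windows running from 250 bases before to 50 after an annotated start. They were searched for 3 units in a row, GAANNTTCNNGAA or TTCNNGAANNTTC, which are each other's reverse complement, so that both strands were read. The promoter table matched 67 of the 77 chaperone genes, not BAG4, DNAJC1, DNAJC22, DNAJC24, DNAJC5B, HSF1, HSPA12B, HSPA14, HSPB2 or HSPB2-C11orf52. Of the 67, 6 held such an array in a window, or 6.74% of their 89 windows against 0.490% of all 35116 windows. These were HSPA6, HSPA8, HSP90AB1, HSPD1, DNAJA1 and DNAJB6. The stretches around the arrays are shown for the 5 genes whose arrays lie before the start, because they mark the genes with the textbook element, and the capitals mark the arrays.
HSPA6 (chr1:161524446-161524498, plus strand): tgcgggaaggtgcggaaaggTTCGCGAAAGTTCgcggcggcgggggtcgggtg
HSPD1 (chr2:197500048-197500090, minus strand): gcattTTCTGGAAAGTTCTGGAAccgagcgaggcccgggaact
HSP90AB1 (chr6:44247758-44247863, plus strand): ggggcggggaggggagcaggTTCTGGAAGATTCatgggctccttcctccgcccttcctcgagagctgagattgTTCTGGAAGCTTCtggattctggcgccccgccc
DNAJB6 (chr7:157336853-157336905, plus strand): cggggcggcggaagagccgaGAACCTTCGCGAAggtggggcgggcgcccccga
HSPA8 (chr11:123062159-123062386, minus strand): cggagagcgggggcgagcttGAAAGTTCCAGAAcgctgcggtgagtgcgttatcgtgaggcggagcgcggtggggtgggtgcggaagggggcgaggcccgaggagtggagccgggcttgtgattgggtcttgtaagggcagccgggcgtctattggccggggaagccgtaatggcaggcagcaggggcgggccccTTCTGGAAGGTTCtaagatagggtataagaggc
The HSPD1 arrays overlap, from 245 to 228 bases before the start. HSP90AB1 and HSPA8 each hold 2 separate arrays, the nearer of which begins 112 and 55 bases before the start. A match describes letters in a window and not a bound factor.

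The columns add up to between 4720978 and 5053120 counts. Counts in the columns of a group were closer to each other than sampling noise allows for separate libraries. The variance of their difference was 0.505 times that of independent counts in EtOH and 0.516 times in HgCl2 over transcripts with a sum of at least 20 counts, and over the chaperone transcripts it was 0.340 and 0.318. Each group was therefore counted as 1 sample, with the mean of its columns as the value, and no p-value is given between the conditions. For the same reason, a lack of overlap between the columns of the groups adds nothing to the counting intervals. A transcript is called here when its fold change is at least 2 and the 95% Clopper-Pearson interval of its log2 ratio leaves out 0. These intervals cover counting error only, since nothing tells how far separate cultures would vary. Counts were made per transcript, and bases shared by several transcripts may have gone uncounted: GAPDH and ACTB had 0 to 1 and 0 to 3 counts. A count of 0 is therefore read as listed at 0, not as an unexpressed gene. Among markers of the line, VIM had 501 to 628 counts, while KRT8 had 53 and 58 in EtOH and 4 in each HgCl2 column. PTPRC, SFTPC and SCGB1A1, markers of other cells, were at 0 in all 4 columns, and PECAM1 had 1 to 5 counts and COL1A1 3 to 18.

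Of the 77 chaperone genes, 56 had a count in some column and 21 were listed at 0. A transcript entered the comparison with a mean FPKM (fragments per kilobase of transcript, scaled to library size) above 1 in either group, which 68 transcripts of 38 genes did, while 18 further genes had counts only on transcripts below that limit. Chaperone transcripts together took 21470 and 21365 counts in EtOH, against 23113 and 23030 in HgCl2. These counts fell on 112 and 113 transcripts in EtOH but on 99 and 100 in HgCl2. The 5 genes with the most counts held 61.5% of them.

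**Figure D1:**
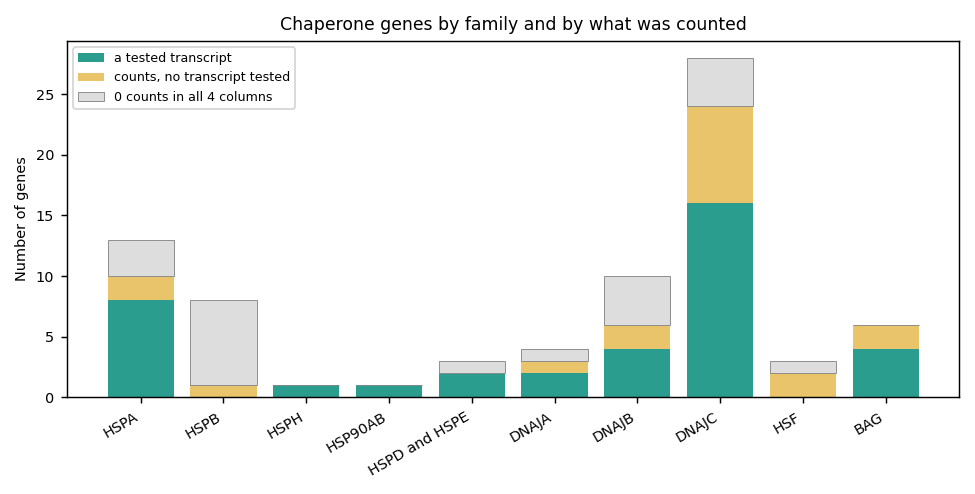
Chaperone genes by family, as bars of the number of genes on a linear axis from 0. Colours separate genes with a transcript in the comparison, genes with counts but no transcript in it, and genes listed at 0 in all 4 columns; the small heat shock proteins (HSPB) and the heat shock factors have none in the comparison.

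Over the whole network, 13 transcripts of 11 genes were called higher in HgCl2 and 12 transcripts of 9 genes were called lower. That is 19.1% and 17.6% of the 68 compared, beside 15.5% and 17.0% of all 17547 transcripts compared. A transcript could pass the FPKM limit through the group where it is high. Both BAG1 and both HSPA8 transcripts called lower passed in EtOH alone. Among those called higher, HSP90AB1, DNAJC16, DNAJC17 and a DNAJB14 transcript annotated for nonsense-mediated decay passed in HgCl2 alone. The direction of such calls is partly set by the filter. With no FPKM filter, 10.6% of 141 chaperone transcripts were called higher and 7.80% lower, beside 8.17% and 7.99% of 39729. The median log2 fold change was 0.05 against -0.21 for all transcripts. The shares were near those of all transcripts. The 68 transcripts come from 38 genes and from 1 sample a group, so the medians were not tested against each other. The difference of the medians was 0.27, and between 0.22 and 0.27 when the counts were scaled by median ratios, by totals or as log2(FPKM + 1). It ran from 0.12, with a floor of 3 counts put under each group, to 0.70 with no FPKM filter, and was 0.48 with counts summed per gene and 0.34 without transcripts under 10 counts in any column. In bulk RNA, fewer cells with a transcript and less of it per cell cannot be told apart.

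The calls depended on the number of counts. The 35 chaperone transcripts that averaged 30 or more counts over the 4 columns had 11 called higher and 0 called lower, which is 31.4% and 0.00%, beside 15.5% and 9.53% of all 7107 such transcripts. Below the fold of 2, the counting intervals of 6 of these lay under 0, on the leading transcripts of HSPA4L, HSPA14, BAG3, DNAJC1 and DNAJC9 and on a retained intron of DNAJB14. The 33 transcripts with fewer counts had 2 called higher and 12 called lower, or 6.06% and 36.4%, beside 15.5% and 22.1% of all 10440. Of the 17 between 30 and 200 counts, 10 were called higher and 0 lower, beside 22.2% and 14.2% of 4395. Among the 18 with 200 or more, 1 was called higher and 0 lower, beside 4.65% and 2.03% of 2712 transcripts, and their median log2 fold change was 0.40 against 0.21.

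**Figure D2:**
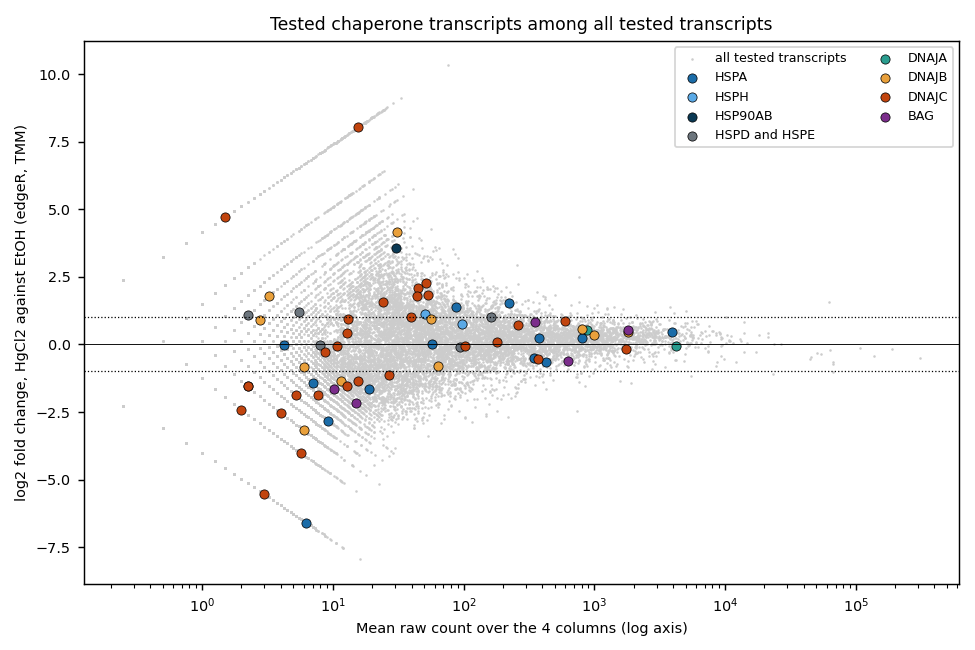
Log2 fold change of HgCl2 against EtOH from edgeR, plotted against the mean raw count over the 4 columns on a log axis. Grey points are all 17547 transcripts compared and coloured points the 68 chaperone transcripts by family, and dotted lines mark a fold of 2. Chaperone points with 200 or more counts lie within the dotted lines except HSPA9 at 1.55, while those with few counts spread widely; fitted values of transcripts with 0 counts in a group depend on the prior count.

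The leading transcript of a gene is the one with the most counts. For 19 genes it reached a mean of at least 200 counts in a group, and 17 of these transcripts are annotated as protein-coding. None of the 17 was called, and their folds of HgCl2 over EtOH lay between 0.643 and 1.82. Their counting intervals lay above 0 for 11, below 0 for 5, and held 0 for 1.

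**Figure D3:**
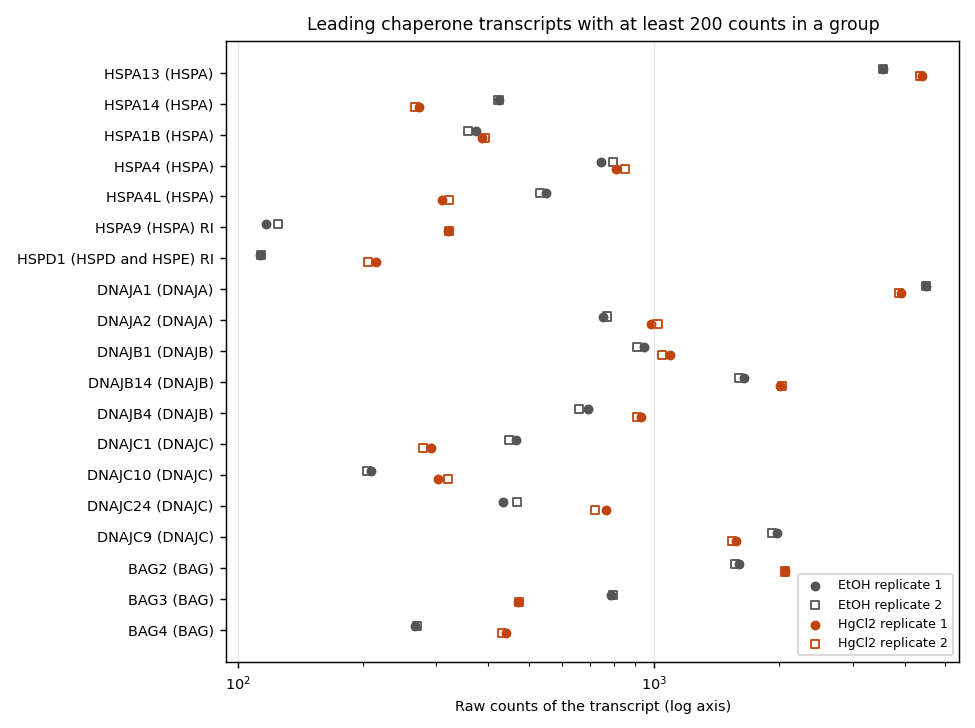
Raw counts of the leading transcript of 19 chaperone genes on a log axis, with EtOH columns in grey and HgCl2 columns in orange, replicate 1 as filled circles and replicate 2 as open squares. The columns of a group nearly coincide, and RI marks the retained introns of HSPA9 and HSPD1, which lie furthest apart between the groups.

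HSPA proteins are the HSP70 chaperones themselves. HSPA1B is the stress-inducible HSP70 that rises steeply after heat, and its only transcript (ENST00000375650, GRCh38 chr6:31827738-31830254, a single exon) had 374 and 358 counts in EtOH and 386 and 392 in HgCl2. The columns of the groups did not overlap, yet they lay close together, and the log2 fold change was 0.23 (0.02 to 0.44), beside a median of 0.21 for all transcripts of 200 or more counts. It was 0.06 when transcripts under 10 counts in any column were dropped. HSPA1A, a neighbouring copy with a near-identical coding sequence, was listed at 0 in all 4 columns, so reads that fit both copies may be missing from either. HSPA6, which is induced by strong heat shock and hardly expressed without it, was also at 0 in all 4 columns although none of its 2355 bases is shared with another listed transcript. A count of 0 per column allows up to 3 counts.

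HSPA13, an ATPase of the microsomal fraction, was the most counted HSPA gene. Its protein-coding transcript ENST00000285667 (chr21:14371115-14383146) had 3548 and 3540 counts in EtOH and 4407 and 4344 in HgCl2, a log2 fold change of 0.45 (0.38 to 0.51). HSPA4, an HSP110-type exchange factor, had 746 and 795 counts in EtOH and 810 and 851 in HgCl2 (0.25, 0.11 to 0.39). These transcripts were thus slightly higher or level.

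Lower in HgCl2 was HSPA4L, the relative of HSPA4 that is abundant in testis. Its transcript ENST00000296464 (chr4:127782322-127840733) had 551 and 532 counts in EtOH and 309 and 321 in HgCl2, a log2 fold change of -0.64 (-0.84 to -0.44). Of the 2712 transcripts with at least 200 counts, 6.08% were lower. HSPA14, the HSP70 that sits on the ribosome with DNAJC2, had 425 and 423 counts in EtOH and 273 and 266 in HgCl2 (-0.51, -0.74 to -0.29). HSPA1L, the testis form next to HSPA1A, had 58, 61, 53 and 56 counts, and its columns did not separate beyond counting error (0.02, -0.54 to 0.57).

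HSPA9 (mortalin), the HSP70 of the mitochondrial matrix that pulls proteins in through the import channel, was counted almost wholly on retained introns. ENST00000649692 (chr5:138554888-138575421, minus strand) had 117 and 125 counts in EtOH and 320 and 322 in HgCl2. This was 2.93-fold higher, a log2 fold change of 1.55 (1.24 to 1.86), and 99.2% of the well-counted transcripts lay below it. The second HSPA9 transcript, ENST00000524109, had 50 and 55 counts against 123 and 124 (1.38, 0.90 to 1.87). The calls of both held in all 13 alternatives. As neither transcript encodes the full protein, these values do not give the level of mature HSPA9 mRNA.

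HSPA8, the constitutive HSP70 that is among the most abundant proteins of cultured cells, was compared only on retained introns. All its transcripts together averaged 56 counts in EtOH against 13 in HgCl2. The leading one, the retained intron ENST00000532091 (chr11:123057496-123060426), had 29 and 30 counts in EtOH and 11 and 6 in HgCl2, a log2 fold change of -1.64 (-2.95 to -0.51). It fell short of the fold of 2 on log2(FPKM + 1), at -0.87. Of the 3 HSPA8 transcripts compared, 2 were called lower, while HSPA9, a gene of the same family, had 2 called higher. Over the HSPA family, 14 transcripts of 8 genes were compared, 2 were called higher and 3 lower. That is 14.3% and 21.4%, beside 15.5% and 17.0% of all transcripts compared.

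HSPH1, the HSP110 exchange factor of the cytosol, is a strong HSF1 target. It was counted on retained introns too. ENST00000626866 (chr13:31136973-31152501) had 76 and 78 counts in EtOH and 115 and 119 in HgCl2 (0.75, 0.32 to 1.18). ENST00000629751 had 38 and 30 counts against 63 and 71, a log2 fold change of 1.12 (0.51 to 1.76) that was called. It was 0.96 without EtOH replicate 2, 0.95 when transcripts under 10 counts in any column were dropped, and 0.84 when summed per gene. Both were higher in each HgCl2 column than in each EtOH column, which adds nothing to the counting intervals.

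HSP90AB1, the constitutive HSP90 of the cytosol, had counts on a single transcript of its 4. ENST00000353801 (chr6:44247087-44253883, protein-coding, 12 exons) had 5 counts in each EtOH column and 54 and 57 in HgCl2, about 12-fold higher with a log2 fold change of 3.58 (2.31 to 5.29). Only 27 of its 2582 bases belong to no other listed transcript, and its FPKM of 0.352 and 4.89 are far below those of DNAJA1, at 353 and 383.

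HSPD1 (HSP60) and HSPE1 (HSP10) are transcribed from a shared promoter. HSPD1 had 3 transcripts in the comparison, all retained introns. ENST00000476746 (chr2:197486586-197499880, minus strand) had 113 and 114 counts in EtOH and 215 and 206 in HgCl2, a log2 fold change of 1.03 (0.70 to 1.38), with 14 of its 3230 bases its own. It was under the fold of 2 when scaled by totals (0.98), with filterByExpr (0.97), without transcripts under 10 counts in any column (0.86), and when counts were summed per gene (0.56). The second, ENST00000491249, had 105 and 98 counts against 79 and 95 (-0.08, -0.51 to 0.35). HSPE1 had 3 and 4 counts in EtOH and 8 and 7 in HgCl2 on its leading transcript, too few to place (1.21, -0.76 to 3.60).

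The HSPB family could not be compared. Of its 8 genes, 7 were listed at 0 in all columns, among them HSPB1 (HSP27), the small heat shock protein best known for its rise under stress, and HSPB8, the partner of BAG3. HSPB6 had 6 counts in all. HSPB1 has 592 bases that no other listed transcript covers, but 574 of them belong to a retained intron and 15 to its longer protein-coding form.

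DNAJA and DNAJB proteins are the classical J-domain co-chaperones that deliver clients to HSP70. DNAJA1, the main partner of HSPA8, was the most counted transcript of the whole network. ENST00000330899 (chr9:33025273-33039907) had 4489 and 4499 counts in EtOH and 3927 and 3881 in HgCl2, a log2 fold change of -0.06 (-0.12 to 0.00). Its sign turned with the scaling, as it was 0.12 on log2(FPKM + 1) and 0.08 with no FPKM filter. DNAJA2 had 753 and 769 counts in EtOH and 985 and 1019 in HgCl2 (0.54, 0.40 to 0.68). The DNAJA pair thus did not move together, whereas DNAJA4 was at 0 and DNAJA3 averaged 8.5 and 6.5 counts in EtOH and HgCl2.

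DNAJB1 (HSP40), a standard read-out of HSF1, had 944 and 912 counts in EtOH and 1091 and 1045 in HgCl2 on ENST00000254322 (chr19:14514769-14518397). The log2 fold change was 0.35 (0.22 to 0.47), and 62.9% of the well-counted transcripts were lower. This transcript has 0 bases of its own, and still had these counts. DNAJB4, an inducible relative, had 695 and 659 against 931 and 911 (0.59, 0.44 to 0.73). DNAJB14, anchored in the endoplasmic reticulum, had 1646 and 1602 against 2001 and 2029 (0.45, 0.36 to 0.55). The leading DNAJB transcripts of at least 200 counts were all slightly higher, by less than the fold of 2.

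Minor transcripts of the DNAJB genes spread further. A DNAJB14 transcript annotated for nonsense-mediated decay, ENST00000398991 (chr4:99903778-99946595), had 3 and 4 counts in EtOH and 57 and 59 in HgCl2, 17.7-fold higher (4.14, 2.68 to 6.29). It has 27 bases of its own, and the gene's sum of counts moved by 0.41 only. DNAJB6, a suppressor of aggregation, was counted on the retained intron ENST00000487480 with 43 and 39 counts in EtOH and 68 and 74 in HgCl2 (0.93, 0.36 to 1.53). It passed the fold of 2 in 3 of 13 alternatives. Of the 11 DNAJB transcripts compared, 1 was called higher and 1 lower, or 9.09% each, beside 15.5% and 17.0% of all transcripts compared.

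DNAJC proteins carry a J domain among varied other parts and serve particular sites in the cell. Of 28 transcripts of 16 genes, 7 were called higher and 6 lower, with both directions within DNAJC19 and DNAJC24. That is 25.0% and 21.4%, beside 15.5% and 17.0% of all transcripts compared. Among all transcripts averaging under 30 counts, the shares were 15.5% and 22.1%. DNAJC24, which takes part in making diphthamide on the elongation factor of translation, had 434 and 468 counts in EtOH and 767 and 720 in HgCl2 on its protein-coding transcript ENST00000465995 (0.86, 0.69 to 1.04). It passed the fold of 2 on both FPKM scales (1.02 and 1.04) and, narrowly, with no FPKM filter. Its ENST00000524747, without a defined coding sequence, had 27 and 24 counts against 80 and 84 (1.82, 1.17 to 2.53). Its decay-class ENST00000526042 had 18 and 24 against 63 and 71 (1.81, 1.09 to 2.60). Summed over its transcripts, the gene averaged 519 counts in EtOH and 902 in HgCl2. A further retained intron of DNAJC24 was called lower.

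DNAJC10 (ERdj5), a disulfide reductase of the endoplasmic reticulum, had 209 and 204 counts in EtOH and 303 and 320 in HgCl2 (0.74, with an interval from 0.48 that ends just under the fold of 2) on a transcript with 0 bases of its own, while 2 of its retained introns were called lower. DNAJC1, a membrane protein of the same compartment, had 465 and 448 counts against 291 and 278 (-0.54, -0.76 to -0.32). DNAJC9, a histone chaperone of dividing cells, had 1971 and 1917 against 1577 and 1540 (-0.18, -0.27 to -0.08), a difference that came to 0.00 on log2(FPKM + 1). Well-counted DNAJC transcripts thus lay on both sides of 0.

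Several DNAJC transcripts of under 100 counts were called higher. DNAJC8, which is found with splicing factors, had 19 counts in each EtOH column and 86 and 82 in HgCl2 on ENST00000470967 (chr1:28205258-28208809). This transcript, without a defined coding sequence, was 4.86-fold higher (2.28, 1.56 to 3.09). The protein-coding DNAJC8 transcript ENST00000263697 had 14 and 9 counts against 11 and 17 and was not called (0.42, -0.81 to 1.69). A further one, ENST00000482674, was at -1.88 (-5.20 to 0.35), also not called. Summed per gene, the log2 fold change of DNAJC8 was 1.47. DNAJC2, the ribosome-bound partner of HSPA14, had 18 and 19 counts against 71 in each HgCl2 column on the retained intron ENST00000492497 (chr7:103312522-103317350), 4.22-fold higher (2.08, 1.33 to 2.91). These 2 calls held in all 13 alternatives.

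DNAJC16 had 0 counts in both EtOH columns and 33 and 29 in HgCl2 on ENST00000479655 (chr1:15565818-15566409), at least 11.4-fold higher against a floor of 3 counts for the EtOH group. This transcript has no base of its own in the annotation and no defined coding sequence. DNAJC17, a nuclear J protein, had 13 counts in each EtOH column and 34 and 37 in HgCl2 (1.58, 0.64 to 2.63), and 0.95 on log2(FPKM + 1). DNAJC19, a part of the mitochondrial import motor together with HSPA9, had 26 and 30 counts against 49 and 54 on ENST00000478723 (1.02, 0.33 to 1.74). Its call held in 7 of 13 alternatives. It was under the fold of 2 without EtOH replicate 1 (0.92), without HgCl2 replicate 2 (0.95), when scaled by totals (0.97), with filterByExpr (0.95), without transcripts under 10 counts in any column (0.85) and when summed per gene (0.34). The transcript has 0 bases of its own and no defined coding sequence.

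DNAJC30, an intronless gene for a protein at the mitochondrial ATP synthase, was the only chaperone transcript called lower with a mean of at least 30 counts in a group. ENST00000395176 (chr7:73680918-73683453) had 39 and 37 counts in EtOH and 15 and 16 in HgCl2, a log2 fold change of -1.14 (-2.11 to -0.26). It was -0.64 on log2(FPKM + 1) and -0.92 on log2(FPKM + 0.1).

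**Figure D4:**
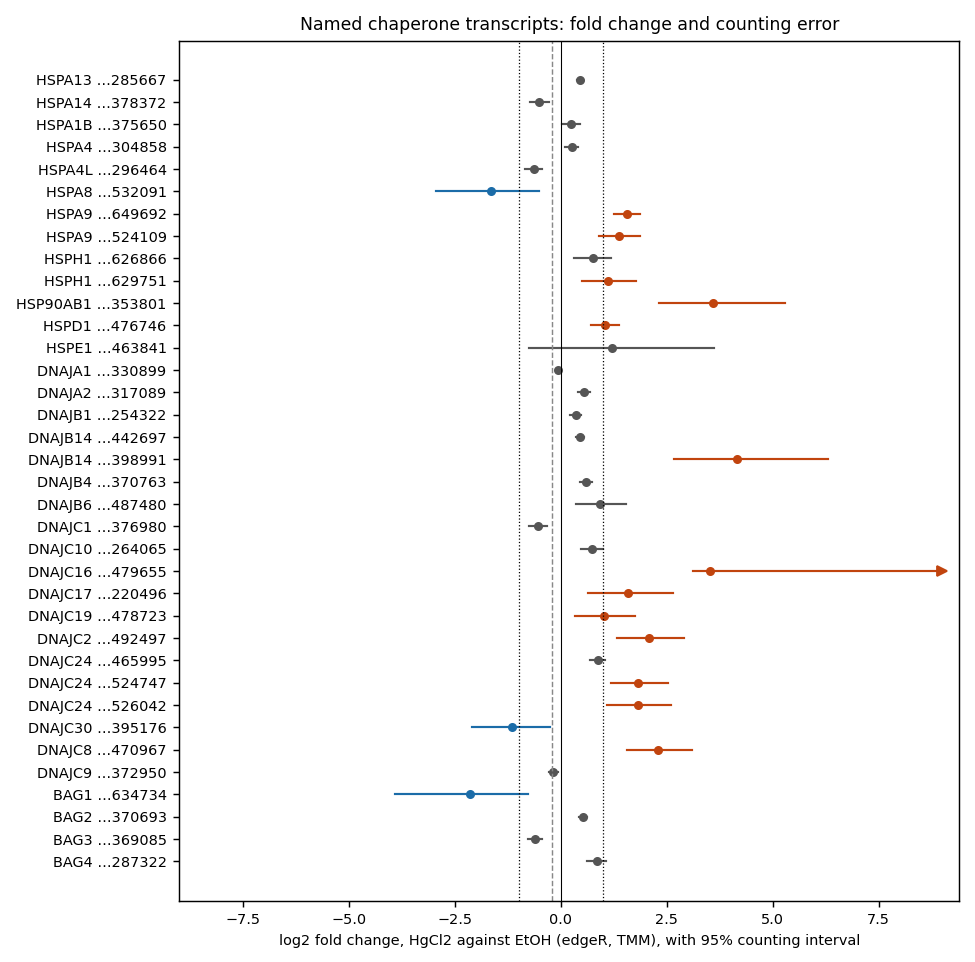
Log2 fold change of HgCl2 against EtOH for the named chaperone transcripts (gene symbol and the last digits of the Ensembl identifier), with 95% counting intervals as bars. Orange marks transcripts called higher, blue called lower and grey not called; dotted lines mark a fold of 2 and the dashed line the median of -0.21 over all transcripts. DNAJC16 is drawn at its lower bound, and its interval runs on past the arrow.

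Heat shock factors had next to no counts. HSF1 had 1 count in EtOH replicate 1 and 0 elsewhere, HSF2 had 2, 2, 3 and 1 counts, and HSF4 was at 0. No transcript of these genes entered the comparison.

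BAG proteins are exchange factors that link HSP70 to degradation and survival pathways. BAG3, an HSF1 target that works with HSPB8 in clearing aggregates, was lower in HgCl2. ENST00000369085 (chr10:119651380-119677819) had 787 and 795 counts in EtOH and 471 and 473 in HgCl2, a log2 fold change of -0.60 (-0.77 to -0.44). It stayed between -0.78 and -0.41 over the alternatives, and 6.82% of the well-counted transcripts were lower. BAG2, an inhibitor of the ubiquitin ligase CHIP, had 1601 and 1560 counts in EtOH and 2060 and 2061 in HgCl2 (0.53, 0.43 to 0.62). BAG4, which silences death receptors, had 267 and 270 against 441 and 432 (0.84, 0.62 to 1.07), and passed the fold of 2 on log2(FPKM + 0.1) alone (1.02). The columns of the groups did not overlap in these, which adds nothing to the counting intervals.

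BAG1, which joins HSP70 to the proteasome, had 24 and 26 counts in EtOH and 5 in each HgCl2 column on ENST00000634734 (-2.15, -3.92 to -0.77), and was -0.76 on log2(FPKM + 1). Both BAG1 transcripts compared were called lower, with 47 counts in EtOH and 11 in HgCl2 on the gene as a whole. Of the 5 BAG transcripts compared, 0 were called higher and 2 lower. That is 0.0% and 40.0%, beside 15.5% and 17.0% of all transcripts compared. Both BAG1 transcripts averaged under 30 counts, where 22.1% of all transcripts were called lower. BAG5 had a single count, and BAG6 had 6 and 4 counts in EtOH and 0 in HgCl2 on its leading transcript. Neither entered the comparison.

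The classes of the transcripts differed in their calls. Of the 26 protein-coding transcripts compared, 2 were called higher and 2 lower, or 7.69% each, beside 12.1% and 15.2% of all 6157 protein-coding transcripts. The 26 retained introns had 5 higher and 8 lower, or 19.2% and 30.8%, beside 20.6% and 16.1% of 3993. The 12 transcripts without a defined coding sequence had 4 higher and 1 lower, beside 18.0% and 15.2% of 1902. The 4 annotated for nonsense-mediated decay had 2 and 1, beside 21.5% and 18.6% of 521. Of all 25 calls, 4 were thus on protein-coding transcripts: HSP90AB1, DNAJC17, BAG1 and DNAJC30. Of the 13 transcripts called higher, 5 had under 100 bases of their own, against 0 of the 12 called lower.

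Calls of the lower kind rested on few counts. The 12 had means between 6 and 38 counts in EtOH and between 0 and 15.5 in HgCl2, and 6 of them were at or under 3 counts in HgCl2. Most of the 12 passed the FPKM limit in EtOH alone. Those called higher had means between 31.0 and 321 counts in HgCl2. The number called lower was 4 on log2(FPKM + 1) and 1 without transcripts under 10 counts in any column.

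Calls for genes with a heat shock element went in both directions, as they did over all transcripts compared (15.5% higher and 17.0% lower of 17547). Among the 6, HSP90AB1 and HSPD1 each had a transcript called higher, HSPA8 had 2 called lower, and DNAJB6 had 1 called lower beside a leading transcript that was not called. DNAJA1 was not called, and HSPA6 was at 0. The calls of HSPD1, HSPA8 and DNAJB6 were all on retained introns, so they do not give the level of mature mRNA. The DNAJB6 transcript called lower averaged 11 counts in EtOH and 1 in HgCl2. Its leading transcript, also a retained intron, had a log2 fold change of 0.93 (0.36 to 1.53). A response of HSF1 was not tested. The HSF1 targets DNAJB1, HSPH1, HSPA1B and BAG3, for which no array of 3 units was found in the windows searched, had log2 fold changes of 0.35, 0.75, 0.23 and -0.60 on their leading transcripts.

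Partner genes of the same network were taken from a list of 25 genes, among them HSP90 co-chaperones, mitochondrial proteases and polyubiquitin. Of these, 21 had a count, and 23 transcripts of 12 genes were compared, of which 5 were called higher (AHSA1 with 2, PTGES3, ST13 and UBB with 1 each) and 3 lower (CLPX, FKBP4 and PTGES3). That is 21.7% and 13.0%, beside 15.5% and 17.0% of all transcripts, and the median log2 fold change was -0.11 against -0.21. HSP90AA1, the inducible HSP90, had 14 counts in each EtOH column and 5 and 3 in HgCl2 on its leading transcript, which did not pass the FPKM limit. PTGES3 (p23), which closes the HSP90 cycle, had 3 and 7 counts in EtOH and 37 and 41 in HgCl2 on ENST00000614328. This was 8.42-fold higher (3.07, 1.76 to 4.81), on a transcript that passed the FPKM limit in HgCl2 alone. Only 82 of its 2077 bases are its own, and the gene's sum of counts moved by 0.62 only. The PTGES3 transcript called lower, ENST00000537473, had 28 and 26 counts against 7 and 6 (-1.89, -3.41 to -0.64). UBB, a polyubiquitin gene, had 33 and 34 counts against 79 and 68 on ENST00000577958 (1.27, 0.67 to 1.91). ST13, the HSP70-interacting protein, was the most counted partner with 4464 and 4559 counts in EtOH and 3795 and 3853 in HgCl2 (-0.10, -0.16 to -0.03), while CHORDC1, FKBP4 and GRPEL1 had leading transcripts between -0.27 and -0.11 and CLPX was at 0.08. PPID, an HSP90-binding cyclophilin, had 421 and 428 counts in EtOH and 619 and 621 in HgCl2 (0.69, 0.51 to 0.87).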

How the data were processed

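Poly-A RNA of H1299 cells was prepared with a TruSeq RNA kit and read from both ends. According to the study's methods and the submitters' processing notes, the authors used Trim Galore for trimming, STAR 2.5.4b for alignment to GRCh38 and Rsubread for counting per transcript; the counting options are not given in the sources used here. The deposited counts are not normalized. For the deposited FPKM the authors used DESeq2 1.26.0 with median-ratio scaling, which gives 1.25 times more FPKM per count in HgCl2 than in EtOH.

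Gene names, classes and coordinates were taken from GENCODE 44 (GRCh38), newer than the authors' annotation, where 98.3% of 227368 identifiers with 99.8% of the counts were found. Bases of a transcript's own are those in no exon of another listed transcript. They follow GENCODE 44 and not the models that the authors counted. For some transcripts, such as HSPA9 ENST00000649692, HSPD1 ENST00000476746 and DNAJC19 ENST00000478723, the deposited FPKM per count does not match the GENCODE 44 length. Fold changes came from edgeR 4.0.16 (TMM, R 4.3.3) over the 17547 transcripts whose FPKM averaged above 1 in a group, with intervals from scipy 1.17.1. The script was tested on simulated data. Alternatives changed the filter, the scaling, the call rule (DESeq2 1.42.0 among them) and the unit, and left out each column. Named transcripts were leading ones with at least 200 counts, called ones with at least 30 counts, and textbook heat shock genes. The members and lists were chosen with earlier results of these data known. Protein sequences were not analysed here.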

Additional observations from a re-analysis of the deposited data

How the results depend on the processing

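Among the alternatives set in the plan, 13 chaperone transcripts called higher became 7 without transcripts under 10 counts in any column and 6 when counts were summed per gene, and 12 called lower became 1 and 3 under these settings. On log2(FPKM + 1) and log2(FPKM + 0.1), 4 and 7 were called lower, and 76.5% and 69.6% of the chaperone calls were higher, against 52.0% with TMM. Over all transcripts the share moved the same way, to 60.5% and 57.1% from 47.7%, and the number of chaperone transcripts called higher on log2(FPKM + 1) was 13, as with TMM. Of the 5 partner transcripts called higher, 1 was left at that count minimum and 2 with sums per gene. The 3 called lower became 1 with no FPKM filter, 0 at the count minimum, 0 with sums per gene, 0 on log2(FPKM + 1) and 1 on log2(FPKM + 0.1). Leaving out each column in turn gave 12 to 14 chaperone transcripts called higher, 8 to 13 lower (8 without EtOH replicate 2), medians of 0.03 to 0.11, and 5 partner transcripts called higher and 1 to 3 lower (1 without HgCl2 replicate 1). The cause of these shifts was not tested. The edgeR quasi-likelihood test with the columns as labelled called 15 chaperone transcripts higher and 14 lower, and 6 partner transcripts lower. With the replicate number as a block it called 13 and 15, and again 6 partner transcripts lower. Such tests, the DESeq2 one included, take the columns of a group as separate libraries. As these columns differ by less than counting noise, the calls say nothing about separate cultures. The labels pair the columns by number only. Variation between cultures is unknown, and transcripts of few counts limit what these depths can show. A planned comparison of protein motifs was not run, as protein sequences were not used here.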
